A study of Homo sapiens with 91 samples.

Results

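The large subunit of the cytosolic ribosome is built around proteins whose genes carry the symbol RPL. These genes were taken as the protein-coding genes named RPL with a number and an optional A, X or L, together with RPLP0, RPLP1 and RPLP2, with pseudogenes left out. The rule found 49 genes among the 57820 annotated genes, and 44 of them reached the mean of 10 CPM needed for a test, among 9992 tested genes. CPM is the count of a gene's barcodes scaled to the same total in every library. The measurements are from MATQ-seq, a method that amplifies total RNA, poly(A)-tailed or not, from 1 cell with random primers and tags each amplified molecule with a random barcode. HEK293T, a transformed line derived from human embryonic kidney, was the source, and every library came from cells labelled as clone 1 of this line, untreated and grown in 1 medium. The 38 single cells are set against 10 pool-split aliquots, which the labels call averaged single cells: RNA of pooled cells divided into portions the size of 1 cell, so that portions differ by technique and not by cell. The labels name neither several cultures nor several pools, so all cells may be of 1 culture and all aliquots of 1 pool. For this reason only the spread within each group was tested, and p-values measure the spread between these libraries; a difference in mean level between cells and aliquots is given as a value without a test.

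The large subunit holds the peptidyl transferase centre, which is made of RNA and joins amino acids into protein, and the tunnel through which the new chain leaves. Its proteins are made in the cytoplasm, carried to the nucleolus, and added to ribosomal RNA together with the 5S RNA particle of RPL5 and RPL11. The stalk of RPLP0, RPLP1 and RPLP2 recruits the GTP-hydrolysing translation factors. In vertebrates the mRNAs of these proteins begin with a cytosine followed by a run of pyrimidines, the 5′ terminal oligopyrimidine (TOP) tract, through which LARP1 and the mTOR pathway control their translation and stability.

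The starts of these genes were read from RefSeq (GRCh38.p14), because the TOP tract is the feature the family shares outside its proteins. Of the 49 genes, 39 had an entry, each with 1 or more annotated starts, and those without one include RPL3L, RPL5, RPL7, RPL8, RPL23, RPL23A, RPL30, RPL37 and RPL39L. A C at the first transcribed base followed by at least 4 further C or T bases, on the strand of the gene, was present at some annotated start of 28 of the 39 genes (71.8%), against 6.24% of the 15842 protein-coding genes in the same table. The tract stood at 76.0% of 25 small-subunit genes, 90.9% of 11 other mRNAs known for a TOP tract and 7.14% of 42 genes of the mitochondrial large subunit. Below are 30-base windows from 10 bases before the start to 20 bases from it, 5′ to 3′, with the pyrimidine run that begins at the start in capitals. For a gene with several annotated starts, the one with the longest run is shown. RPL31, which followed the other members most closely across cells, RPL37A and RPLP0, whose spread differed most between cells and aliquots among the members with an entry, RPL11 of the 5S particle, and RPL28, which did not follow the others, are shown first.
RPL31 (chr2:101002279-101002308, plus strand): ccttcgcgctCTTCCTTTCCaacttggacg
RPL37A (chr2:216498834-216498863, plus strand): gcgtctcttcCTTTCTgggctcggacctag
RPLP0 (chr12:120201092-120201121, minus strand): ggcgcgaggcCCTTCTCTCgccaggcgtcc
RPL11 (chr1:23691796-23691825, plus strand): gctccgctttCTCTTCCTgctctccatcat
RPL28 (chr19:55385922-55385951, plus strand): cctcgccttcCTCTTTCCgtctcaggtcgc
RPL35A (chr3:197950180-197950209, plus strand): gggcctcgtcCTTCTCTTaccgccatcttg
RPL4 (chr15:66504836-66504865, minus strand): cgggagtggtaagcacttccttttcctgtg
RPL10L (chr14:46651762-46651791, minus strand): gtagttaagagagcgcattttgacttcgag
RPL28 has a run of 8 pyrimidines, as RPL11 does. Whether the tract bears on how closely a gene follows the others was not tested. RPL35A is shown because its exons held almost no barcodes although its start has the tract. RPL4 and RPL10L, a retrogene that in the mouse serves spermatogenesis, have no such run at the annotated start. In RPL4 a run of pyrimidines lies a few bases further on, and whether the annotated start is the one used in these cells was not tested.

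The libraries held 128322 to 326476 exonic barcodes in cells (median 217070) and 152542 to 275215 in aliquots (median 173966). Large-subunit genes took 2551 to 8830 of them per cell and 2737 to 5200 per aliquot. A cell had 11264 to 15607 genes with an exonic barcode and an aliquot 11821 to 13303. The intronic share of all barcodes ranged from 32.7% in cell 36 to 66.8% in cell 1 over cells, and from 54.9% to 60.4% over aliquots. Of the markers of the line, IRS4, LIN28B and INA had exonic barcodes in every library, NEFM in 36 cells and 10 aliquots, and PAX2 in 17 cells and 6 aliquots. NEFL of the same list was not analysed here. The 8 markers of MCF10A, the breast epithelial line also used in the study, summed to at most 37.3 CPM in a cell and 23.8 CPM in an aliquot, with KRT6A and KRT17 at 0 throughout.

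Together the large-subunit genes were a steady fraction of the aliquots and a varying fraction of the cells. Their summed level, in CPM of exonic barcodes scaled by the trimmed mean of M values (TMM), averaged 21382 ± 3394 in cells (SD, n = 38) and 18843 ± 787 in aliquots (SD, n = 10). In cells it ran from 12975 CPM in cell 8 through a median of 21559 to 31002 CPM in cell 36, and in aliquots from 17560 through 18937 to 19938 CPM. The summed level of 26 cells lay above every aliquot, that of 6 below every aliquot, and that of 6 within the range of aliquots. The coefficient of variation (CV) was 15.9% over cells and 4.18% over aliquots, while the counting error alone gives 1.48% and 1.71%. As a share of all exonic barcodes before scaling, the genes made up 2.13% ± 0.317 in cells and 1.89% ± 0.0785 in aliquots (SD). Without cells 8, 36 and 37, chosen after the values were seen as the lowest and the 2 highest, the CV over cells was 11.7%. With exonic reads in place of barcodes the CV was 23.7% over cells and 6.63% over aliquots.

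**Figure D1:**
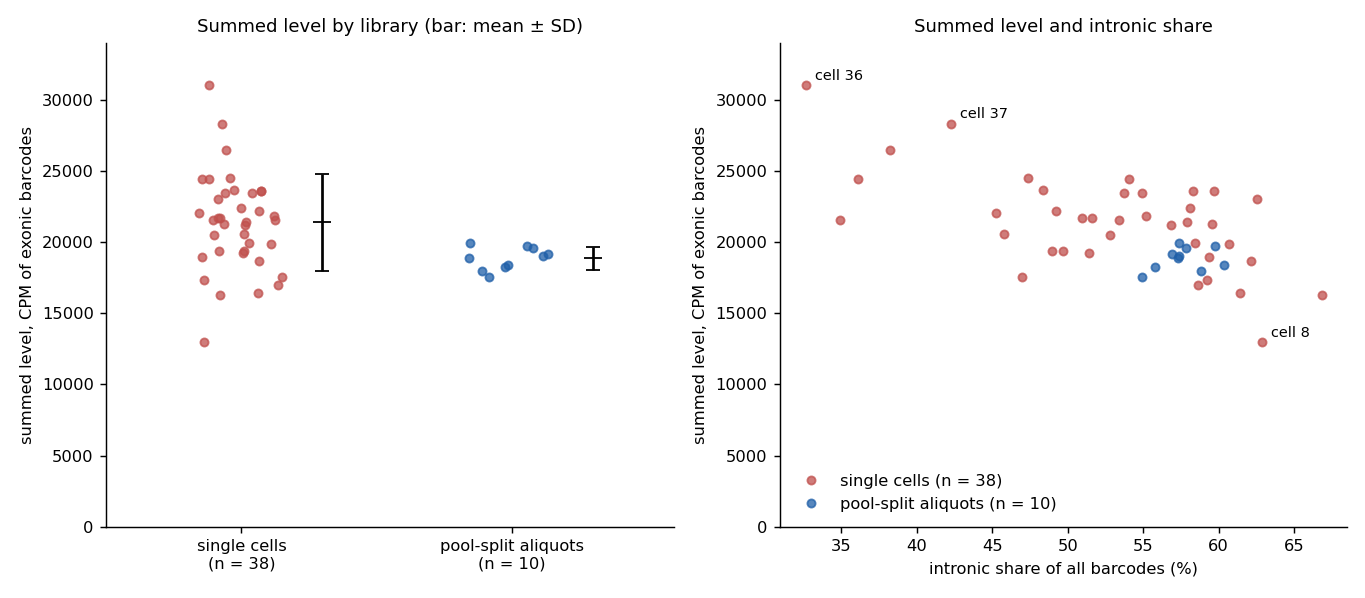
Left, the summed level of the 49 large-subunit genes (CPM of exonic barcodes) in each of 38 single cells and 10 pool-split aliquots, with the mean and SD of each group; right, the same level against the intronic share of all barcodes in percent. The cells spread from 12975 to 31002 CPM and the aliquots from 17560 to 19938 CPM, and the highest cell, 36, has the lowest intronic share.

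Most of the genes had levels of the same order, and a few lay far lower. Uncorrected for length, mean levels in cells ran from 15.3 CPM for RPL39L to 988 CPM for RPL3 over the 44 tested genes, with a median of 448 CPM, and 40 of the 44 exceeded 100 CPM. In aliquots the means ran from 13.03 CPM for RPL39L to 934 CPM for RPL3, with a median of 424 CPM. The 10 highest genes made up 39.3% of the sum over tested genes in cells and the same 10 made up 37.6% in aliquots. Levels were compared between genes per kilobase of mRNA, with the length of the shortest complete principal coding transcript of GENCODE 29. RPL4, RPL22, RPL23A, RPL27A, RPL37 and RPL37A were left out of that order, because that transcript extends more than 1000 bases beyond the coding sequence and would understate them. Among the other 38 genes, RPL23 and RPL35 were highest, at 1361 CPM per kb each in cells and at 1092 and 1266 CPM per kb in aliquots. RPL34 followed with 1283 CPM per kb in cells and 1056 in aliquots. RPL24, RPL8, RPL6, RPL36 and RPL31 lay between 906 and 980 CPM per kb in cells and between 671 and 887 in aliquots, and 28 of the 38 exceeded 500 CPM per kb in cells.

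At the low end per kb stood RPL39L with 23.5 CPM per kb in cells and 20.0 in aliquots, RPL17 with 45.5 and 47.0, RPL36A with 81.8 and 62.0, RPL26 with 161 and 165, and RPL7A with 302 and 306. RPL39L is a copy of RPL39 known for high expression in testis. It was listed at 0 in some libraries of both groups and reached 43.6 CPM in cells and 28.3 CPM in aliquots, whereas RPL39, which lines the exit tunnel, had no library at 0: it ranged over 94.8 to 275 CPM in cells and 111 to 245 CPM in aliquots, or 452 CPM per kb in cells and 429 in aliquots. The exons of RPL17 and RPL36A overlap those of the readthrough genes RPL17-C18orf32 and RPL36A-HNRNPH2, and the exons of RPL26 overlap AC135178.2. Those of RPL7A overlap the small nucleolar RNA genes SNORD24, SNORD36A, SNORD36B and SNORD36C. Neither readthrough gene had an exonic barcode in any library. Their intronic barcodes were 29 in cells and 16 in aliquots for RPL17-C18orf32, and 936 and 131 for RPL36A-HNRNPH2. Overlaps are those of GENCODE 29. The sources used here do not say how a read in overlapping genes was counted. A low level of RPL17, RPL36A, RPL26 or RPL7A cannot be told apart from reads lost to the overlap.

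**Figure D2:**
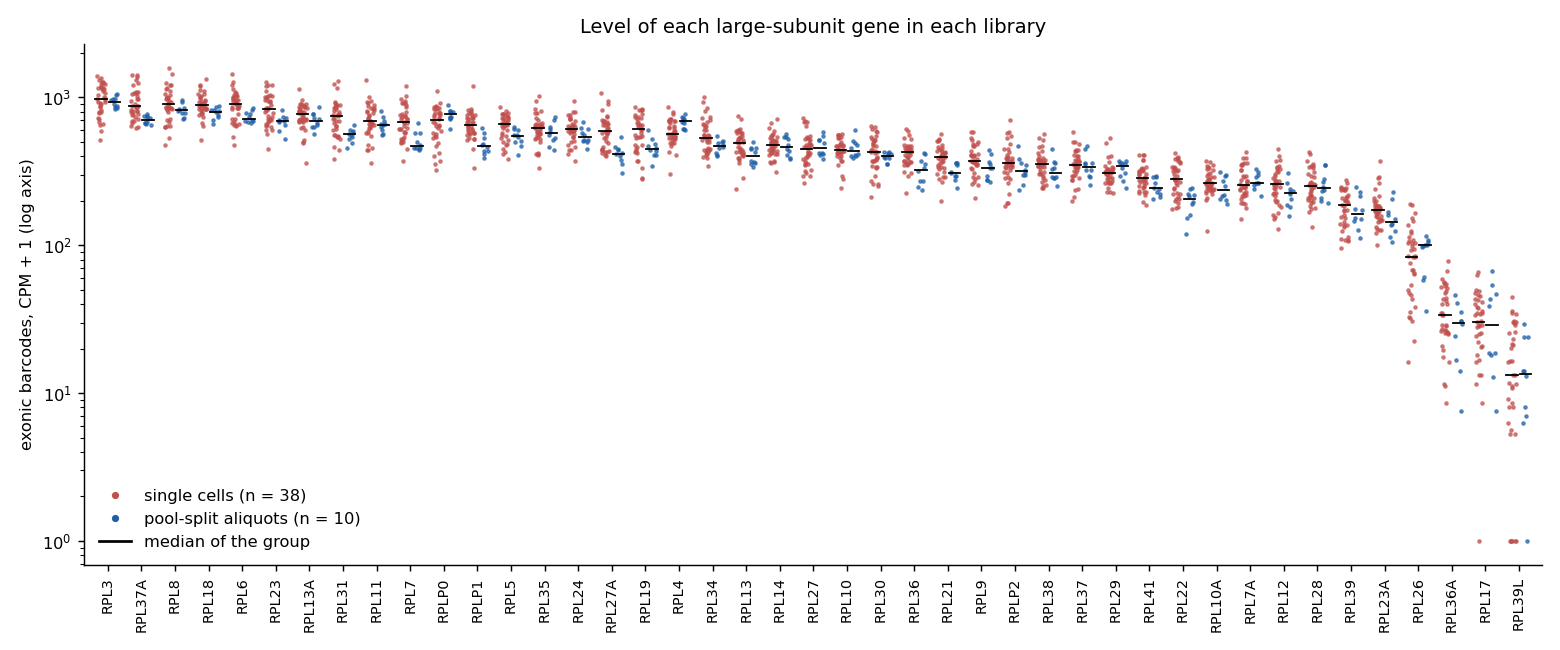
Level of 43 of the 44 tested large-subunit genes in each library (CPM of exonic barcodes plus 1, log axis), in order of the mean over cells, with cells left and aliquots right at each gene and black lines at the medians. Most genes lie between 100 and 1000 CPM, the points of the cells spread wider than those of the aliquots, and RPL26, RPL36A, RPL17 and RPL39L lie below the rest.

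Of the 5 genes under the filter, RPL3L and RPL10L are known as tissue-restricted copies, of striated muscle and of testis. RPL3L had 7 exonic barcodes in all cells and 0 in all aliquots, where a count of 0 allows at most 3, and RPL10L had 1 and 0. Their parents were among the well-counted genes, RPL3 with 8808 exonic barcodes in cells and 1793 in aliquots and RPL10 with 3809 and 871. The other 3, RPL15, RPL32 and RPL35A, encode core proteins of every ribosome, yet RPL15 was listed with 4 exonic barcodes in cells and 0 in aliquots, RPL32 with 9 and 2, and RPL35A with 1 and 0. Their introns did carry barcodes: 71 in cells and 23 in aliquots for RPL15, 350 and 141 for RPL32, and 180 and 67 for RPL35A. Exonic barcodes were assigned to their pseudogenes, 459 in cells and 76 in aliquots for those of RPL15, 100 and 17 for those of RPL32, and 83 and 18 for those of RPL35A. The exons of RPL15 overlap NKIRAS1 and those of RPL32 overlap CAND2, both on the other strand, and those of RPL35A overlap no annotated gene. The cause of the near-empty exons was not tested, and nothing on the use of these 3 genes can be read from them.

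Barcodes were also assigned to pseudogenes of the family, unevenly between its genes. The files list 729 RPL pseudogenes, 405 of them with an exonic barcode, and together they held 6.05% of the exonic barcodes of genes and pseudogenes in cells and 6.16% in aliquots. RPL14P1 led with 2203 exonic barcodes in cells and 533 in aliquots, beside 4167 and 877 for RPL14 itself. RPL6P27 had 1898 and 331, RPL13AP5 900 and 189, and RPL7P9 893 and 137. For RPL14, RPL6, RPL13A, RPL7 and RPL23A the pseudogenes made up from 14.6% (RPL13A) to 34.6% (RPL14) of the barcodes of gene and pseudogenes in cells, whereas those of RPL38 and RPLP1 held 0 barcodes. Reads of a gene placed on its pseudogene and transcripts of the pseudogene itself cannot be told apart in these counts, so the levels of these 5 genes are uncertain. The same limit holds for RPL26 (14.2% in cells), RPL10A (11.9%), RPL36A (10.9%) and RPL24 (9.32%).

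Barcodes per gene varied more between cells than between aliquots across nearly the whole set, although no single gene passed the test. The test compared absolute deviations of log2 CPM from the group median in limma, with Benjamini-Hochberg adjustment over all 9992 genes. At an adjusted p of 0.05 it called 0 of 44 genes with the larger spread in cells (background 0.0%, 0 of 9992) and 0 with the larger spread in aliquots (background 0.03%). At an unadjusted p of 0.05, 11 of 44 genes had the larger spread in cells, against a background of 3.67%, and 0 had the larger spread in aliquots, against 3.54%. The negative-binomial test of separate dispersions likewise called 0 of 44 genes after adjustment in either direction (background 0.23% and 0.01%), and 14 of 44 without adjustment in cells (background 6.86%) and 0 in aliquots (2.38%). The mean deviation was larger in cells for 40 of 44 genes, against 54.9% of all tested genes. Members tended to vary together over cells, so these counts are not counts of independent genes. The median ratio of the deviation in cells to that in aliquots was 1.48, and 1.04 over all tested genes. The count of 11 was 7 (372 of 9992 genes in all) with the trend on the intronic share removed, 3 (116 of 9992) with squared deviations and 1 (490 of 32310) with no filter on level. Without cells 8, 36 and 37, chosen after the values were seen, it was 8 (352 of 9962). The median ratio was then 1.34, and 1.03 over all genes. The background takes in genes from 10 CPM up, whereas the members had a median of 448 CPM in cells. Raising the filter to 50 CPM gave 10 of 41 members and 287 of 5170 genes in all. The median ratios were then 1.52 for members and 1.10 for all genes. Whether the members differ from other genes of like level was not tested.

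In cells most of the genes varied beyond their counting error, and in aliquots they varied close to it. The median CV of CPM over the 44 genes was 23.8% in cells and 14.5% in aliquots, and the CV that counting alone would give had a median of 10.1% in cells and 11.4% in aliquots. In cells the observed CV was more than 2 times the counting CV for 29 of 44 genes and within 1.5 times for 4. In aliquots it was more than 2 times the counting CV for 0 genes and within 1.5 times for 39. The median CV over all tested genes was 48.9% in cells and 46.9% in aliquots. Their counts against the counting CV are not given here, so those of this family are not shown to be particular to it. A gene of this family had a median of 102 exonic barcodes per cell and 81.6 per aliquot, and the 4 genes under 100 CPM had counting CVs of 23.1% to 54.5% in cells and 25.1% to 64.9% in aliquots.

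**Figure D3:**
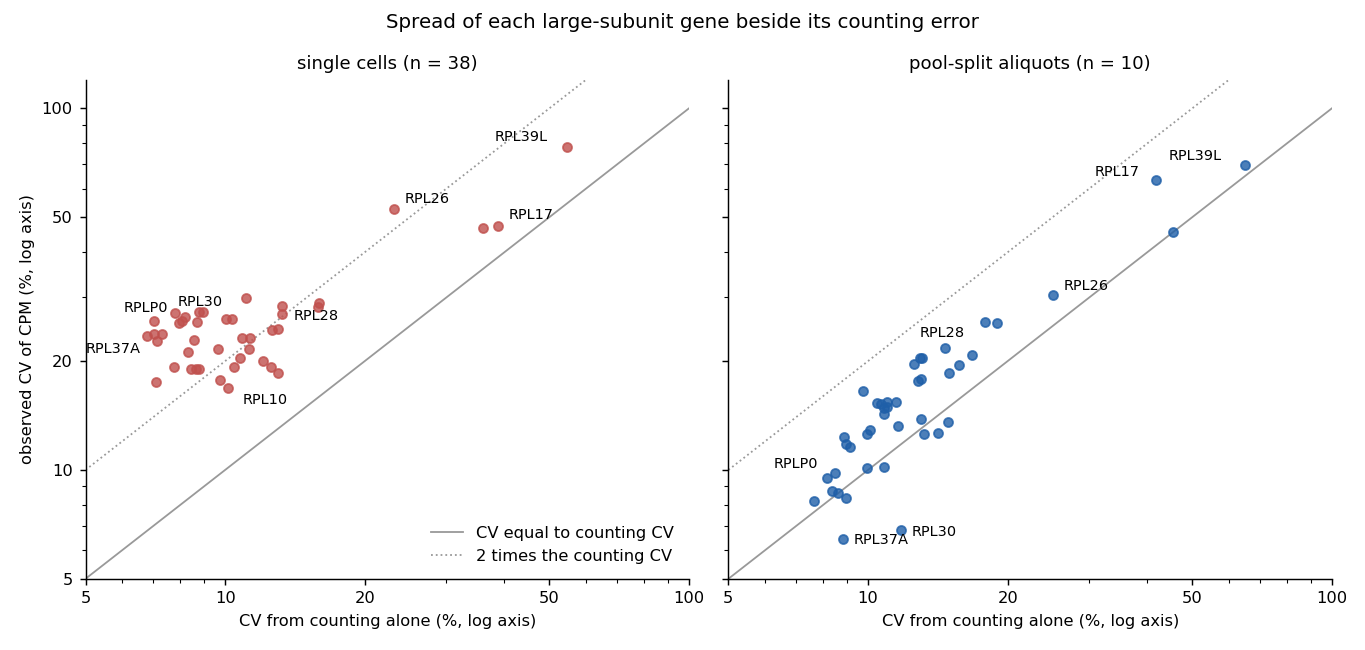
Observed CV of CPM against the CV from counting alone (both in percent, log axes) for 43 of the 44 tested large-subunit genes, in single cells on the left and pool-split aliquots on the right, with lines at equality and at 2 times the counting CV. In cells most genes lie above the dotted line, and in aliquots none does.

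RPL30, a protein of the surface that faces the small subunit, had the smallest limma p. It was at 211 to 643 CPM in cells (median 426) and at 352 to 425 CPM in aliquots (median 401). The aliquots kept within a narrow band that 19 cells exceeded and 10 cells fell short of. The ratio of deviations was 3.90, with an unadjusted limma p of 0.00334 and an adjusted p of 0.502. The negative-binomial test gave RPL37A the smallest unadjusted p, 0.000501, and RPL30 0.000703. RPL37A, a small zinc-binding protein, was at 623 to 1410 CPM in cells (median 868) and 645 to 775 CPM in aliquots (median 702). There 28 cells lay above all aliquots and 3 below, and the ratio was 3.00 (limma adjusted p = 0.562). In cells the CV was 26.2% for RPL30 and 23.8% for RPL37A, with counting CVs of 10.3% and 7.02%. In aliquots it was 6.81% for RPL30 and 6.44% for RPL37A, below the counting CVs of 11.8% and 8.82%, so both ratios have an aliquot spread smaller than counting alone would give.

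RPLP0, the base of the stalk, was at 323 to 1108 CPM in cells (median 700) and 608 to 888 CPM in aliquots (median 766), with 2 cells above all aliquots and 13 below. Its ratio of deviations was 2.95 (limma adjusted p = 0.562). RPL3 and RPL8 reach towards the peptidyl transferase centre. RPL3 was at 518 to 1404 CPM in cells (median 981) and 840 to 1049 CPM in aliquots (median 931), with 16 cells above every aliquot and 11 below. RPL8 was at 479 to 1590 CPM in cells (median 907) and 709 to 957 CPM in aliquots (median 817), with 16 cells above and 8 below. Both had a ratio of 2.80, with a limma adjusted p of 0.562 for RPL3 and 0.569 for RPL8.

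At the other end, RPL17 of the exit tunnel had a ratio of deviations of 0.67, with a range of 0 to 64.8 CPM in cells and 6.55 to 65.9 CPM in aliquots. RPL36, RPL10A, RPL23A and RPL36A had ratios of 0.84, 0.86, 0.96 and 1.03. RPL36 was at 225 to 608 CPM in cells and 236 to 417 CPM in aliquots, and RPL10A, a protein of the mobile L1 stalk, was at 124 to 369 CPM in cells and 190 to 314 CPM in aliquots. The limma adjusted p of these 5 genes lay between 0.770 and 0.992. A p that misses the threshold does not show that the spreads are equal.

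By place in the subunit, none of the groups held a gene that passed the adjusted test. The groups have 2 to 9 genes, their ratios of deviations overlap, and no difference between groups was tested; 54.9% of all tested genes had the larger deviation in cells. Of RPLP0, RPLP1, RPLP2 and RPL12 at the P stalk and RPL10A at the L1 stalk, 4 of 5 had the larger deviation in cells, with a median ratio of 1.42. Both 5S particle proteins did: RPL11 had a ratio of 2.23 and RPL5 of 1.49. RPL3, RPL8 and RPL10, which lie nearest the peptidyl transferase centre, had 2.80, 2.80 and 1.06. RPL10 had the lowest CV over cells of the 44 genes, 16.8%, and 14.9% in aliquots. It ran from 244 to 565 CPM in cells and from 386 to 603 CPM in aliquots, so no cell lay above all aliquots. Of 9 exit-tunnel proteins, 7 had the larger deviation in cells and the median ratio was 1.23. RPL23, RPL24 and RPL41, the 3 genes listed for the contacts with the small subunit and the translation factors, had 2.35, 1.34 and 1.31; RPL30, which was not in that list, also lies on this face and had 3.90.

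Mean levels were mostly somewhat higher in cells. For 35 of 44 genes the mean in cells exceeded that in aliquots, against 53.4% of all tested genes. The median log2 ratio of cells to aliquots was 0.17, and 0.02 over all tested genes. RPL22, an RNA-binding protein, had the largest ratio, with 176 to 418 CPM in cells (median 281) and 119 to 242 CPM in aliquots (median 206), a log2 ratio of 0.55. There 26 cells lay above all aliquots and 0 below. RPL27A, RPL7 and RPLP1 had log2 ratios of 0.54, 0.47 and 0.46, and no gene's mean was more than 1.5 times higher in cells. The median log2 ratio was 0.40 when exonic reads were counted in place of barcodes, and 0.05 with cells 1 to 10 alone, a subset looked at after the values were seen.

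RPL27A ran from 402 to 1070 CPM in cells (median 589) and from 305 to 539 CPM in aliquots (median 415). RPL7 ran from 368 to 1196 CPM in cells (median 679) and from 439 to 672 CPM in aliquots (median 466). RPLP1, a partner of RPLP2 in the stalk, ran from 334 to 1191 CPM in cells (median 650) and from 390 to 616 CPM in aliquots (median 467). In all 3 genes most cells, 21 to 24 of 38, lay above every aliquot. Among the lowest ratios were those of RPL4, RPLP0 and RPL29, with log2 ratios of -0.21, -0.17 and -0.06. RPL4, which forms part of the tunnel wall, was at 304 to 859 CPM in cells (median 565) and at 600 to 769 CPM in aliquots (median 689), so 23 of 38 cells lay below every aliquot. RPLP1 and RPLP0, which join in 1 stalk, had log2 ratios of opposite sign, a difference that was not tested.

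Genes of the large subunit tended to be high or low in the same cells. Over the 38 cells the mean Spearman's rho of the 946 pairs of tested genes was 0.348, with 861 pairs above 0, and over the 10 aliquots it was 0.061 with 544 pairs above 0. The mean over all pairs of tested genes was 0.003 in cells. Pairs of other genes at like level were not set apart in that mean. The values of a pair come from the same libraries and share their scaling and depth, so these coefficients are descriptions, given without a p. Of the 946 pairs, 137 exceeded 0.6 over cells and 48 over the 10 aliquots. The share of all pairs of tested genes past this cut is not given here. A rho over 10 libraries also scatters more than one over 38. RPL6 and RPL11 were the closest pair, with a rho of 0.874 over cells and 0.455 over aliquots, followed by RPL7 and RPL37A with 0.808 and 0.176, and by RPLP0 and RPL5 with 0.791 and 0.176. Cell 8 held the lowest value of 18 of the 44 genes and cell 36 the highest of 15. Without cells 8, 36 and 37 the mean rho over cells was 0.246.

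RPL31, RPL21, RPL34 and RPL23 followed the summed level of the other members most closely over cells, each with a rho between 0.784 and 0.787. Over aliquots the same 4 genes had -0.042, 0.939, 0.479 and -0.236. RPL31 was at 383 to 1283 CPM in cells (median 753) and at 452 to 647 CPM in aliquots (median 561), with 25 cells above every aliquot and 2 below. For 32 of 44 genes the rho with the other members exceeded 0.5 over cells, and for 10 over aliquots. No matching count over all tested genes is given here. RPL28, RPL29, RPL10 and RPL17 followed least, with rho of -0.060, 0.078, 0.164 and 0.190 over cells. RPL17 had a mean of 7.16 exonic barcodes per cell and a counting CV of 38.7%, which limits what its rho can show. RPL28 was at 132 to 427 CPM in cells and 192 to 346 CPM in aliquots. Its rho over cells was negative with RPL26 (-0.432), RPL6 (-0.425), RPL11 (-0.372) and RPL3 (-0.366). Over aliquots its rho with the same genes was 0.770, 0.394, 0.382 and -0.030.

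**Figure D4:**
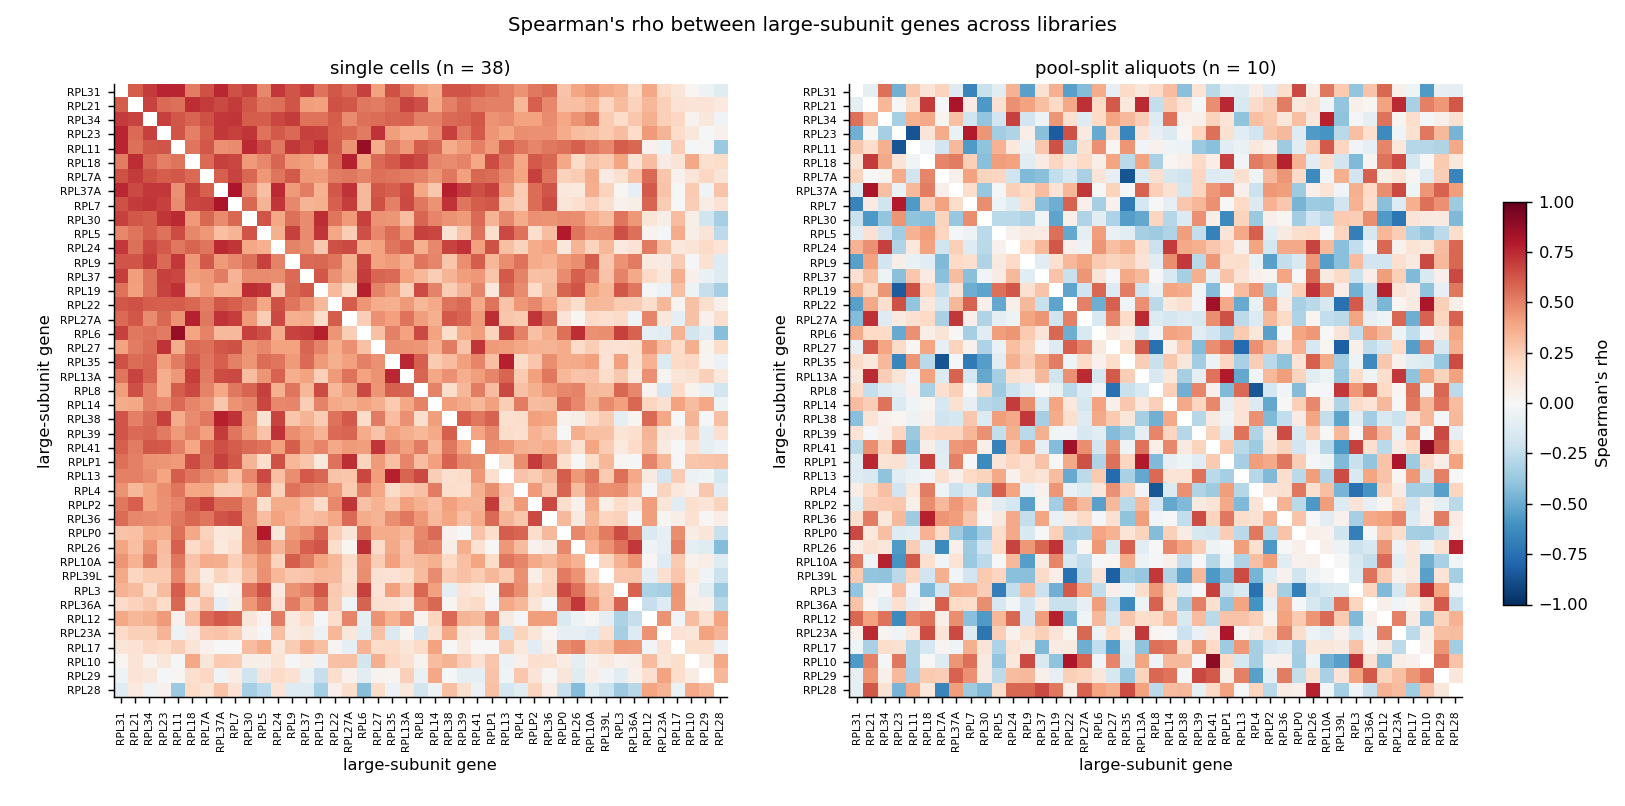
Spearman's rho between each pair of 43 of the 44 tested large-subunit genes over 38 single cells (left) and 10 pool-split aliquots (right), genes in the order of their rho with the other members over cells. Over cells most pairs are above 0 and RPL28 at the end of the order has negative values, while over aliquots values of both signs mix throughout.

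The intronic share of a library moved against the family's level over cells. The summed level had a Spearman's rho of -0.516 with the intronic share of all barcodes over 38 cells, and -0.387 without cells 8, 36 and 37, and 0.345 over 10 aliquots. Cell 36 had 31002 CPM at an intronic share of 32.7%, cell 37 had 28304 CPM at 42.3%, and cell 8 had 12975 CPM at 62.8%. Taken singly, 21 of 44 genes (47.7%) had a rho below -0.4 with the intronic share, against 7.03% of all tested genes, and 0 had one above 0.4, against 4.31%. A comparison with other genes of like level was not made here either. RPL13, RPLP0, RPL6, RPL3 and RPL5 had the most negative values, from -0.688 to -0.631, and 4 genes had positive ones, RPL28 with 0.319, RPL12 with 0.282, RPL23A with 0.238 and RPL10 with 0.055. With the trend on the intronic share removed, the mean rho between members over cells was 0.299. The summed level had a rho of -0.101 with the number of exonic barcodes and of 0.303 with the cell's number in the labels. What part the intronic share has in the spread between cells was not tested beyond these values.

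The introns of these genes held few barcodes. Over the library as a whole, 52.8% ± 8.27 of barcodes were intronic in cells and 57.6% ± 1.66 in aliquots, but of the barcodes of large-subunit genes 5.26% ± 2.21 were intronic in cells and 7.30% ± 1.24 in aliquots (SD). The share was higher in aliquots for 34 of 44 tested genes, the same direction as in the library as a whole. Of the rest, 5 had no intronic barcode in either group and so no direction. No such count is given here for all tested genes, so it is not shown to be particular to this family. RPL39L, RPL23A, RPL39, RPL28 and RPL22 had the highest shares, with 57.7%, 25.1%, 15.2%, 14.5% and 14.4% in cells and 71.6%, 26.8%, 20.6%, 16.8% and 29.3% in aliquots. RPL13, RPL18, RPL23, RPL26 and RPL36A had no intronic barcode in any library. RPL36A-HNRNPH2, whose exons overlap those of RPL36A, held 936 intronic barcodes in cells and 131 in aliquots. Whether barcodes in the introns of these genes could be assigned to them was not tested, so a share of 0 may not be a measured one. Shares of 0 are included in the medians below. The 18 tested genes with an annotated small nucleolar RNA (snoRNA) inside, many of which host them in introns, had a median share of 5.36% in cells and 6.80% in aliquots, and the other 26 had 3.28% and 4.28%. RPL23A hosts 4 of them, SNORD42A, SNORD42B, SNORD4A and SNORD4B, and reads of such a snoRNA and of the intron around it cannot be told apart in these counts.

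**Figure D5:**
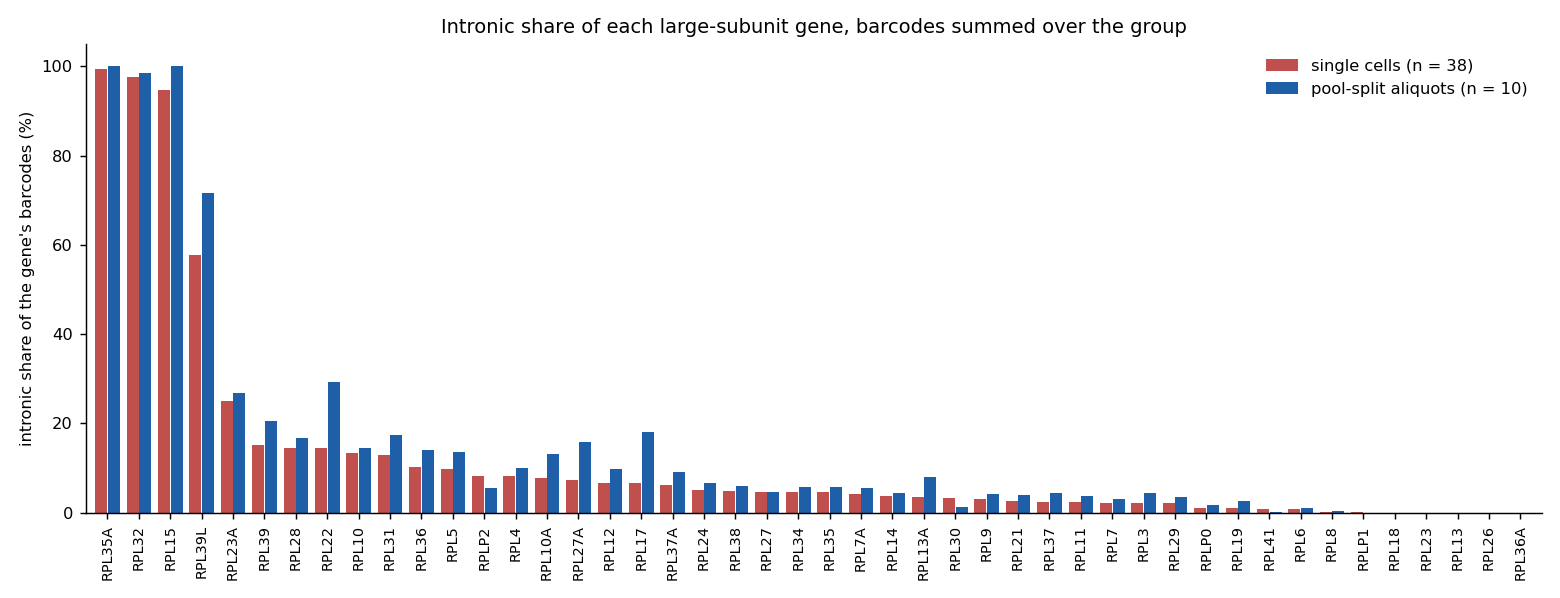
Intronic share of each gene's barcodes in percent, summed over 38 single cells (left bar) and 10 pool-split aliquots (right bar), for 43 of the 44 tested large-subunit genes and RPL15, RPL32 and RPL35A. RPL35A, RPL32 and RPL15 at the left stand near 100%, their exons holding almost no barcodes, RPL39L follows with 57.7% in cells and 71.6% in aliquots, and most of the tested genes are higher in aliquots.

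Partners of the large subunit were described in the same way, with lists chosen with results of these data known. The 32 small-subunit genes, 30 of them tested, had a median ratio of deviations of 1.80, with 29 of 30 larger in cells, 0 past the adjusted limma threshold and 9 past the unadjusted one in cells; over all tested genes 54.9% were larger in cells and 3.67% passed the unadjusted threshold there. Their summed level averaged 17915 ± 3047 CPM over cells, against 15253 ± 697 CPM over aliquots (SD), and had a rho of 0.943 with that of the large subunit over cells and 0.721 over aliquots. The other TOP mRNAs, which encode translation factors and related proteins, summed to 8353 ± 851 CPM over cells, against 8336 ± 256 CPM over aliquots, with a rho of 0.839 over cells and -0.297 over aliquots; 14 of 16 tested had the larger deviation in cells, with a median ratio of 1.49. The mitochondrial large subunit, whose proteins enter a separate ribosome, had a median ratio of 1.15 over 39 tested genes and a rho of 0.756 over cells and -0.176 over aliquots. The 60S assembly factors had a median ratio of 1.08 over 25 tested genes, 16 of them larger in cells, close to the share over all genes, and a rho of 0.416 over cells and -0.261 over aliquots. Of the 7 regulators of TOP mRNAs, 5 had the larger deviation in cells, with a median ratio of 1.11. In none of these lists did a gene pass the adjusted limma or negative-binomial test in either direction. The lists were not compared with other genes of like level.

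Among genes outside the family, those whose level followed the summed large-subunit level most closely over the 38 cells were RPS18 (rho = 0.853), LDHB (0.825), EIF1AX (0.816), EEF1B2 (0.816), TOMM7 (0.807), RPS27 (0.800), SLIRP (0.798), SNRPE (0.795), SNHG5 (0.790) and COX7C (0.785). RPS18 and RPS27 are small-subunit proteins, EIF1AX and EEF1B2 are translation factors, and SNHG5 is a noncoding snoRNA host. LDHB is a lactate dehydrogenase subunit, TOMM7 belongs to the mitochondrial import pore and COX7C to cytochrome c oxidase. The most opposed were TM9SF4 (-0.728), MICAL3 (-0.727), MAN2C1 (-0.703), CENPT (-0.675) and LENG8 (-0.674). Over the 10 aliquots the 10 followers had rho from -0.479 (EIF1AX) to 0.745 (RPS27), 8 of them above 0, and the 5 opposed genes from -0.018 (MAN2C1) to 0.321 (CENPT).

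Of relatives outside the naming rule, RPL36AL, an expressed retrocopy of RPL36A, was at 350 ± 111 CPM in cells and 209 ± 46.7 CPM in aliquots (SD), above RPL36A itself with 35.1 ± 16.4 CPM in cells and 26.6 ± 12.1 CPM in aliquots. Per kb this was 469 CPM in cells and 280 in aliquots for RPL36AL, and 81.8 and 62.0 for RPL36A. RPL7L1, RPL22L1 and RPL26L1, copies of RPL7, RPL22 and RPL26, were at 267 ± 59.6, 45.2 ± 20.1 and 45.1 ± 23.1 CPM in cells and at 225 ± 46.4, 39.96 ± 18.05 and 35.1 ± 18.99 CPM in aliquots.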

How the data were processed

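Each deposited file lists, for 57820 Ensembl genes, whole-number counts of exonic and intronic reads and of exonic and intronic random barcodes, with no normalization by the authors in the file. Per the submitters' processing notes TopHat, HTSeq and the human build hg19 were used; the sources used here give neither versions nor strand use. Of 91 samples, 48 were analysed, grouped by their labels, and 43 were not analysed here. Symbols (52338 genes) came from GENCODE 29 by identifier; genes without one held 1.59% of exonic barcodes. The exons of 31 members overlap another annotated gene, so their reads can be shared. The 49 members and all gene lists were chosen with earlier results of these data known.

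Exonic barcodes were scaled by TMM in edgeR 4.0.16 and kept at a mean of 10 CPM or more over the 48 libraries; log2 CPM had a prior count of 1. Spread was compared with limma 3.58.1 on absolute deviations from each group's median, corrected for the size of the group, with robust and trended moderation, two-sided, with Benjamini-Hochberg adjustment over 9992 genes. A likelihood-ratio test of 2 negative-binomial dispersions against 1 (60 values from 0.001 to 20) was the alternative. Both were also run on simulated data with known extra variation between cells. That outcome is not given here, so what size of spread either test could detect is not shown. The counting CV is that of a Poisson count with the library's own total and covers counting error only. Alternatives were DESeq2 1.42.0 size factors, total scaling, reads, thinning to 128322 exonic barcodes, filters of 50 CPM and none, a prior count of 5, squared deviations, removed trends, cells 1 to 10 and 5 added relatives. Genes named singly were taken by rank: the highest and lowest by level per kb, ratio of deviations, p, ratio of means, intronic share and likeness to the summed level, with RPLP0, RPLP1, RPLP2 and the copies ending in L. Pairs of libraries of 1 group differed in counts by at least 2.13 (cells) and 2.07 (aliquots) times the sampling variance, so none was counted as a repeat. A gene counted among the members and a relative are not reported here by name or value.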

Additional observations from a re-analysis of the deposited data

How the results depend on the processing

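The count of large-subunit genes past the adjusted threshold was 0 in both directions under all 15 alternatives, the negative-binomial test included; without adjustment it ranged in cells from 1 with no filter on level to 12 with exonic reads and 14 in the negative-binomial test, beside 11, and was 3 with squared deviations and 7 with the trend on the intronic share removed. The median ratio of deviations lay between 1.34 and 1.72 over 12 alternatives, the mean rho over cells between 0.246 (without cells 8, 36 and 37) and 0.410 over 11, both highest with cells 1 to 10 alone, and the summed level in cells between 20096 and 22301 CPM. Squared deviations gave a ratio of 2.32, on a squared scale, and 1.09 over all genes. Counting reads instead of barcodes moved 3 values: the summed level in aliquots to 15155 CPM, its CV to 6.63%, and the median log2 ratio of means to 0.40, and it gave a CV over cells of 23.7%, beside 15.9%; the cause was not tested. With cells 1 to 10 alone that ratio was 0.05, and over the other alternatives 0.15 or more. Replicate numbers paired no samples (correlations of same-numbered cells and aliquots between -0.043 and 0.046). With cells 1 to 10 alone, the replicate block gave 0 genes after adjustment and 8 before it, and no replicate block gave 0 and 10. Leaving out each replicate in turn was not run, since both groups hold 10 or more libraries. For the 10 genes of largest and smallest ratio, the direction held in 117 of 128 recomputed values. These 10 genes were picked by rank in the same data. RPL17 kept its direction, but its difference of mean deviation went from -0.271 to -0.0144 when thinned and to -0.126 with reads. In the other 11 values the difference of mean deviation changed sign, all in 3 genes. RPL36A did so with squared deviations (-0.0845), without the number trend (-0.0697), and with cells 1 to 10 with and without the block (-0.00797 each). RPL23A did so when thinned (0.0390), squared (0.0139) and with cells 1 to 10 with and without the block (0.121 each). Its main value was -0.0121, so the change with cells 1 to 10 was not a small one. RPL10A did so with reads (0.0318), thinned (0.0161) and squared (0.0101). The counting CV of RPL36A, RPL17 and RPL39L, 36.04% to 54.5% in cells and 41.8% to 64.9% in aliquots, limits what their spreads can show.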
